A study of Mus musculus with 2 samples.

Results

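TAL1, LMO2 and LDB1 are subunits of a transcription factor complex of blood cell precursors, and 10 genes that encode its subunits and their close relatives were examined: Tal1, Lyl1, Lmo2, Ldb1, Ssbp2, Ssbp3, Ssbp4, Tcf3, Tcf12 and Cbfa2t3. They were chosen by symbol, and all 10 were found among the 43346 mouse genes of the deposited tables, with 90 of the 103639 annotated transcripts. Polyadenylated RNA was sequenced from both ends of the fragments in 2 libraries of G1E-ER4 cells kept for 24 h in 10 nM of 17beta-estradiol. The libraries are labelled biological replicates 1 and 2, form the only group, and carry the same biosample record. The spread between them may therefore be technical. G1E-ER4 is an immortalized mouse erythroid line, recorded as male and postnatal, that lacks a functional Gata1 gene of its own. A fusion of GATA1 with the hormone-binding domain of the estrogen receptor was introduced instead, and estradiol switches the fusion protein on and starts erythroid maturation. Reads of the transgene cannot be told apart from other Gata1 reads, and untreated cells were not analysed here.

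In this complex TAL1, or its relative LYL1, pairs with an E protein (the products of Tcf3 or Tcf12) through a basic helix-loop-helix (bHLH) domain, and the pair binds E-box DNA. LMO2, a protein of LIM zinc-binding domains, joins the pair to GATA1 or GATA2 and to LDB1. LDB1 can bind to itself and bring distant DNA elements together, as it does between the beta-globin genes and their enhancer. The SSBP proteins bind LDB1 and protect it from degradation, and CBFA2T3 (ETO2) is a corepressor that keeps targets of the complex low in erythroid precursors.

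The libraries held 70451042 estimated counts in replicate 1 and 13841487 in replicate 2, so replicate 1 was 5.09-fold deeper. Where no read was counted, the level could still be up to 0.0426 CPM (counts-per-million) in the deeper library and 0.217 CPM in the shallower one, a limit of 3 counts that covers counting error only. Of 10 erythroid markers, 9 were detected, meaning at least 1 TPM (transcripts-per-million, a level per length of transcript) in both libraries. The exception was Epb42, a red cell membrane protein, with 1.32 TPM in replicate 1 and 0.29 TPM in replicate 2. Globin transcripts took a large and unequal part of the libraries: Hbb-bs, the adult beta-globin, had 122878 TPM in replicate 1 against 45332 TPM in replicate 2. No marker of mast cells, endothelium, B cells, T cells, monocytes or fibroblasts was detected, and the summed level of each of these lists was at most 1.11 TPM in either library. Of 6 megakaryocyte markers 2 were detected, Itga2b (3.32 and 3.27 TPM in replicates 1 and 2) and Gp9 (2.02 and 4.33 TPM), while the platelet genes Pf4 and Ppbp were at 0.

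Transcripts of all 10 complex genes were detected, against a background of 17.2% of all genes. Their levels spanned a wide range, with Ssbp3 the highest by mean TPM (Lmo2 was slightly higher in replicate 2) and Lyl1 the lowest in both libraries, and 9 of the 10 lay above the median of the 7444 detected genes, which was 18.6 TPM. In TPM, 8 of the 10 were higher in replicate 2, against 41.5% of the 8895 genes with a mean of at least 1 CPM, and Tcf12 and Ssbp2 were higher in replicate 1, against 58.4%. This count depends on the scale. By CPM, Ssbp3 (1065 in replicate 1 against 647 in replicate 2) and Lmo2 (324 against 322) were higher in replicate 1. The other members kept their direction by CPM. The deposited TPM intervals, whose level is not given, overlapped between the libraries for 2 genes, Ssbp3 and Lyl1, and did not overlap for the other 8, against 76.6% of the same 8895 genes, so this count was near the background. They are not intervals around the TPM values given here. In replicate 2 the TPM of Tal1 (569) lay above its upper bound (559). The same held there for Lmo2, Ldb1, Ssbp3, Ssbp4, Tcf3 and Cbfa2t3, but not for Tcf12, Ssbp2 and Lyl1. With 2 libraries of 1 group no test between conditions exists, and the smallest two-sided p of an exact sign-flip test is 0.5. In such bulk RNA a lower share of expressing cells and less RNA per cell cannot be told apart.

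Among the DNA-binding subunits, Tal1 RNA was abundant and Lyl1 RNA scarce. Tal1 (chr4:115056426-115071755, plus strand, mm10) had 408 TPM from 36413 counts in replicate 1 and 569 TPM from 8458 counts in replicate 2, or 488 ± 114 TPM (SD, n = 2). Lyl1 (chr8:84701457-84704715, plus strand) had 3.15 TPM from 358 counts in replicate 1 and 4.39 TPM from 82 counts in replicate 2. Its exact 95% Poisson intervals were 322 to 397 counts in replicate 1 and 65.2 to 102 counts in replicate 2. Both genes were lower in replicate 1 by a like factor, so their ratio was the steadiest of those computed. The log2 ratio of Tal1 over Lyl1 was 6.97 in replicate 1 and 6.99 in replicate 2 on the TPM scale, and Tal1 gave 99.2% of the summed TPM of the pair in both libraries. Lyl1 lies inside Nfix on the opposite strand, and Nfix had 6.69 TPM in replicate 1 against 16.1 TPM in replicate 2. Whether the strand entered the counting is not stated in any source used here, so reads of Lyl1 and its antisense partner may be mixed. Tal2, the nearest other relative, was at 0.01 TPM in replicate 1 and 0 in replicate 2.

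The 4 transcript models of Tal1 all had reads, and which one appears to lead depends on the scale. Tal1-202, a model of 683 bases annotated as lacking its 3′ end, took 67.1% of the gene's TPM in replicate 1 and 65.5% in replicate 2. It took 27.5% and 27.2% of the gene's counts in replicates 1 and 2. Tal1-204, a complete coding model of 2894 bases, took 29.6% and 33.2% of TPM in replicates 1 and 2, but 62.7% and 69.0% of counts. The shares of both models were close between the libraries. Grouped by first base, models that start at chr4:115057438-115057811 held 68.6% of Tal1 TPM in replicate 1 and 66.5% in replicate 2, and Tal1-204, which starts at 115059508, held the 29.6% and 33.2% above. The model with the most upstream start, at 115056426, held 1.75% in replicate 1 and 0.32% in replicate 2. RefSeq (GRCm38.p6) places a promoter at that upstream start and another at 115057811, the first base of Tal1-203, which held 1.58% of TPM in replicate 1 and 1.04% in replicate 2. Neither window covers the first base of Tal1-202 or of Tal1-204. The upstream window, which covers 250 bases before and 50 after the start, is printed because it is the only Tal1 window of the table with a GATA motif (GATAA on either strand, in capitals; TTATC is the motif read on the other strand).
Tal1 upstream promoter, chr4:115056176-115056475, plus strand: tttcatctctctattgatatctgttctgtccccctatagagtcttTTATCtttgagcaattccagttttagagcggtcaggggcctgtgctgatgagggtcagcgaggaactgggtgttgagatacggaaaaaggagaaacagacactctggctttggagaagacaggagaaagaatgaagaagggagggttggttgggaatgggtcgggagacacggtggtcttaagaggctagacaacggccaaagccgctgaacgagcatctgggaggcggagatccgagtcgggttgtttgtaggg

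Of the E protein genes, Tcf3 supplied most of the RNA and Tcf12 the smaller part. Tcf3 (chr10:80409514-80433647, minus strand) had 189 TPM from 30257 counts in replicate 1 and 392 TPM from 9505 counts in replicate 2. Tcf12 (chr9:71842688-72111871, minus strand) had 44.0 TPM from 4829 counts in replicate 1 and 27.1 TPM from 280 counts in replicate 2. The genes thus differed between the libraries in opposite directions, and Tcf3 was the higher in both. Tcf3 gave 79.9% of the summed E protein TPM in replicate 1 and 92.7% in replicate 2, Tcf12 gave 18.6% and 6.41%, and Tcf4, another E protein gene, gave 1.46% and 0.854%. The log2 ratio of Tcf3 over Tcf12 in TPM was 2.10 in replicate 1 and 3.85 in replicate 2.

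Splicing of Tcf3 places 1 of 2 alternative exons in the bHLH region, which gives the proteins E12 and E47. These exons are printed because they set the DNA-binding part of the E protein that pairs with TAL1. The exon of E12 was read at chr10:80412827-80413062 from Tcf3-201, and that of E47 at chr10:80410398-80410624 from Tcf3-202, both on the minus strand of mm10, with 2202 bases between them. Aligned without gaps from their 3′ ends, 57 of the 227 bases compared differ, which leaves 74.9% identical. Capitals mark the differing bases and the overhang of E12 is in lower case.
E12 exon: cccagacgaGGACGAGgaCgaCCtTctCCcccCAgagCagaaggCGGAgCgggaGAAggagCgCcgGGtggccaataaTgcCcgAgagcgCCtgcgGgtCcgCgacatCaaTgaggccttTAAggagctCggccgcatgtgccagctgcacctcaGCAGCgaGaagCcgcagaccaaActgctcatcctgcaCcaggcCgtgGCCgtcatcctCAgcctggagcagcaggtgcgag
E47 exon: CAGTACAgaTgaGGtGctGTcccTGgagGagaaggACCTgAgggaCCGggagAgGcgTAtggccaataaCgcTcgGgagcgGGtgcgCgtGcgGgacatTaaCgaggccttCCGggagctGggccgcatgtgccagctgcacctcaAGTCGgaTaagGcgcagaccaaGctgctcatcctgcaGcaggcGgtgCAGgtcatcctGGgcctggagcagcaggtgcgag
Among coding models that hold either exon, E47 was the larger form in both libraries. E47 models had 129 TPM in replicate 1 against 211 TPM in replicate 2, and E12 models had 33.5 TPM in replicate 1 against 117 TPM in replicate 2. E47 took 79.4% of the sum in replicate 1 and 64.2% in replicate 2, or 71.8 ± 10.7% (SD, n = 2). By counts in place of TPM, the E47 share was 78.9% in replicate 1 and 67.6% in replicate 2. With the noncoding Tcf3-212, which holds the E12 exon, the E47 share of TPM was 68.8% and 54.0% in replicates 1 and 2. Tcf3-202, an E47 model, led in both libraries with 29.6% and 44.5% of the gene's TPM. The other models were less steady: Tcf3-205 (E47) had 21.1% in replicate 1 and 0 in replicate 2, and Tcf3-203 (E12) had 0.68% in replicate 1 and 19.5% in replicate 2.

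The Tcf12 level rests on a short model. Tcf12-203, of 600 bases and incomplete, held 77.0% of Tcf12 TPM in replicate 1 and 59.1% in replicate 2, but 21.7% and 30.1% of its counts. The complete coding models summed to 8.54 TPM in replicate 1 and were listed at 0 in replicate 2, where the gene had 280 counts in all. Tcf12-202, a complete model of 6299 bases, had 74.8% of the counts in replicate 1 and 0 in replicate 2. A processed pseudogene, Rpl15-ps2, lies inside Tcf12 on the opposite strand and had 9.13 TPM in replicate 1 against 10.1 TPM in replicate 2. Of the Id genes, whose products bind E proteins and keep them from DNA, 1 of 4 was detected: Id1 had 38.7 TPM in replicate 1 against 19.9 TPM in replicate 2, while Id2 and Id4 were at 0 and Id3 had 0 and 1.56 TPM.

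The bridging subunits Lmo2 and Ldb1 were both among the higher members. Lmo2 (chr2:103957986-103981878, plus strand) had 556 TPM from 22805 counts in replicate 1 and 909.9 TPM from 4459 counts in replicate 2, or 733 ± 250.3 TPM (SD, n = 2). Ldb1 (chr19:46031570-46045214, minus strand) had 299.5 TPM from 40362 counts in replicate 1 and 664 TPM from 13835 counts in replicate 2. Lmo2 accounted for 99.3% of the TPM of the LIM-only genes in replicate 1 and 99.4% in replicate 2, with Lmo4 the rest and Lmo1 and Lmo3 at 0. Ldb2, the paralog of Ldb1, had 0 counts in both libraries. The start of Ldb1 overlaps Pprc1 on the opposite strand, which had 5.54 TPM in replicate 1 against 7.12 TPM in replicate 2.

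For Lmo2 the libraries had nearly the same CPM and different TPM. It had 324 CPM in replicate 1 and 322 CPM in replicate 2, but its effective length, the length that the deposited tables assign to the gene from its transcript mix, was 595 bases in replicate 1 and 438 bases in replicate 2. The libraries differed in their mix of incomplete models. Lmo2-204, of 848 bases, held 43.9% of TPM in replicate 1 and 14.5% in replicate 2, and Lmo2-206, of 478 bases, held 39.9% in replicate 1 and 82.1% in replicate 2. Incomplete models together took 92.8% of Lmo2 TPM in replicate 1 and 96.6% in replicate 2, and the complete coding models summed to 39.7 TPM in replicate 1 and 31.0 TPM in replicate 2. Models from the most upstream start, at chr2:103957986-103957995, held 9.09% of TPM in replicate 1 and 0.04% in replicate 2.

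Ldb1 RNA was assigned nearly wholly to complete coding models, yet to different ones in each library. Ldb1-202 held 60.2% of TPM in replicate 1 and 8.93% in replicate 2. Ldb1-205 held 1.34% in replicate 1 and 71.1% in replicate 2, which in counts was 515 of 40362 and 9953 of 13835. The deposited standard deviations of these counts, which measure only how well reads could be assigned, were 50.8 for Ldb1-205 in replicate 1 and 68.0 in replicate 2. The shift was smaller by start site, because both models start at chr19:46039481-46039621: this start held 61.6% of TPM in replicate 1 and 80.1% in replicate 2. The start at chr19:46044914-46045214 held 37.3% and 19.8% in replicates 1 and 2.

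Among the SSBP genes, Ssbp3 led in TPM, Ssbp4 followed and Ssbp2 was lowest. Ssbp3 (chr4:106910701-107049694, plus strand) had 874 TPM from 75043 counts in replicate 1 and 907 TPM from 8958 counts in replicate 2, or 890.5 ± 23.5 TPM (SD, n = 2). Ssbp4 (chr8:70597490-70608872, minus strand) had 165 TPM from 15015 counts in replicate 1 and 447 TPM from 6714 counts in replicate 2. Ssbp2 (chr13:91460283-91703429, plus strand) had 29.8 TPM from 1604 counts in replicate 1 and 15.4 TPM from 144 counts in replicate 2. Of the summed SSBP TPM, Ssbp3 made up 81.8% in replicate 1 and 66.2% in replicate 2, and Ssbp4 made up 15.4% and 32.6%. With counts divided by the length of all merged exons of each gene, a fixed length in both libraries, the Ssbp3 share was 52.3% in replicate 1 and 22.9% in replicate 2, and that of Ssbp4 was 46.7% and 76.7%. The Ssbp3 lead over Ssbp4 in replicate 2 was thus turned round by the choice of length. The merged length was 6582 bases for Ssbp3, which has 17 models, and 1475 bases for Ssbp4, which has 1. It also counts exons of models with few or no reads, so it lowers genes with many such models.

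Much of the Ssbp3 and Ssbp2 level came from models without a coding sequence. Ssbp3-211, a noncoding model of 629 bases, held 44.4% of Ssbp3 TPM in replicate 1 and 76.8% in replicate 2, and 17.0% and 43.4% of its counts. The coding models of Ssbp3 summed to 336 TPM in replicate 1 and 181 TPM in replicate 2, which was 38.5% and 19.9% of the gene's TPM. For Ssbp2, the noncoding Ssbp2-209 held 64.5% in replicate 1 and 93.3% in replicate 2, and the coding models summed to 4.08 TPM in replicate 1 and 0.98 TPM in replicate 2. Ssbp4 has 1 model in the tables, which is coding.

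The noncoding Ssbp3-211 and the shorter Ssbp3-214 start inside the gene, at chr4:106923225 and 106923185, and this internal start held 45.8% of Ssbp3 TPM in replicate 1 and 79.2% in replicate 2. The main upstream group of starts, at chr4:106911470-106912298, held 44.8% in replicate 1 and 19.9% in replicate 2. By counts the upstream group was the larger in both libraries, with 74.0% in replicate 1 and 55.4% in replicate 2. The internal start then held 17.3% and 44.1% of counts in replicates 1 and 2. The RefSeq promoter window anchored at the first base of Ssbp3-214, which also covers that of Ssbp3-211, is printed because it holds 2 GATA motifs, 1 of them within a composite of the kind that the TAL1, LMO2 and GATA1 complex is known to bind: CTG, then 8 or 9 bases of any kind, then GATAA, on either strand. Capitals mark GATAA on either strand and the CTG of the composite, which begins 47 bases before the start and reads as CAG on the printed strand.
Ssbp3 internal promoter, chr4:106922935-106923234, plus strand: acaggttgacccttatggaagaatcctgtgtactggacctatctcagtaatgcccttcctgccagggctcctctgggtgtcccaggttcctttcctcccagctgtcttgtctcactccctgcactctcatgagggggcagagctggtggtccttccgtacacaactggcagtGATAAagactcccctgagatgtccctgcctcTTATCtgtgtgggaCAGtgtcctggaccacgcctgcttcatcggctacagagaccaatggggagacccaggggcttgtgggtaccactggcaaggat
The window at the first base of the upstream group, 106911470, held neither motif.

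Cbfa2t3 (chr8:122625141-122699109, minus strand), the corepressor gene, had 195 TPM from 36572 counts in replicate 1 and 369 TPM from 9743 counts in replicate 2, or 282 ± 123 TPM (SD, n = 2). It gave 96.9% of the TPM of the ETO family in replicate 1 and 98.8% in replicate 2, with Cbfa2t2 at 6.18 TPM in replicate 1 and 4.32 TPM in replicate 2. Runx1t1, the other gene of that family, had 0 TPM and 0.02 TPM. Gm10612, an antisense gene at the upstream start, had 0.68 TPM in replicate 1 against 0.35 TPM in replicate 2.

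Cbfa2t3 RNA was assigned in different proportions in the libraries to models with different annotated starts. The use of the start sites themselves was not measured. The upstream start at chr8:122698902-122699109, from which the coding model Cbfa2t3-203 runs, held 47.3% of TPM and 62.7% of counts in replicate 1, and 17.6% of TPM and 28.4% of counts in replicate 2. The downstream group at chr8:122678072-122678175 held 36.9% of TPM in replicate 1 and 72.0% in replicate 2. Cbfa2t3-203 has 4047 bases in the deposited tables and 7645 in the later annotation from which first bases were taken, so its start and the promoter matched to it are uncertain. Leading models followed these starts, with Cbfa2t3-203 at 43.4% of TPM in replicate 1 and 17.1% in replicate 2, and Cbfa2t3-201 at 18.8% in replicate 1 and 38.4% in replicate 2. The promoter window of the upstream start is printed because it is the other one that holds the composite, 118 bases before the start, with the same capitals.
Cbfa2t3 upstream promoter, chr8:122699060-122699359, minus strand: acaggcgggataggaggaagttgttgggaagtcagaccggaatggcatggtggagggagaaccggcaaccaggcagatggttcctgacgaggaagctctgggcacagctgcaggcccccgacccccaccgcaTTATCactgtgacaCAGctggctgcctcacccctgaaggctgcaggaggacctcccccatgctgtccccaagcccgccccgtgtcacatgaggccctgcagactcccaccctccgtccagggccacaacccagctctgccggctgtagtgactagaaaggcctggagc
Of 16 RefSeq promoter windows matched to 9 of the 10 genes, 4 held GATAA (the 3 printed and 1 of the 3 Ldb1 windows), against 25.4% of 32851 mouse promoters of the same length. The E-box CAGNTG was found in 8 of the 16, against 51.4% of all promoters, and the composite in 2 of the 16, against 1.46%. The composite contains a GATAA by its definition. These matches describe letters in the windows, and no binding was measured.

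**Figure D1:**
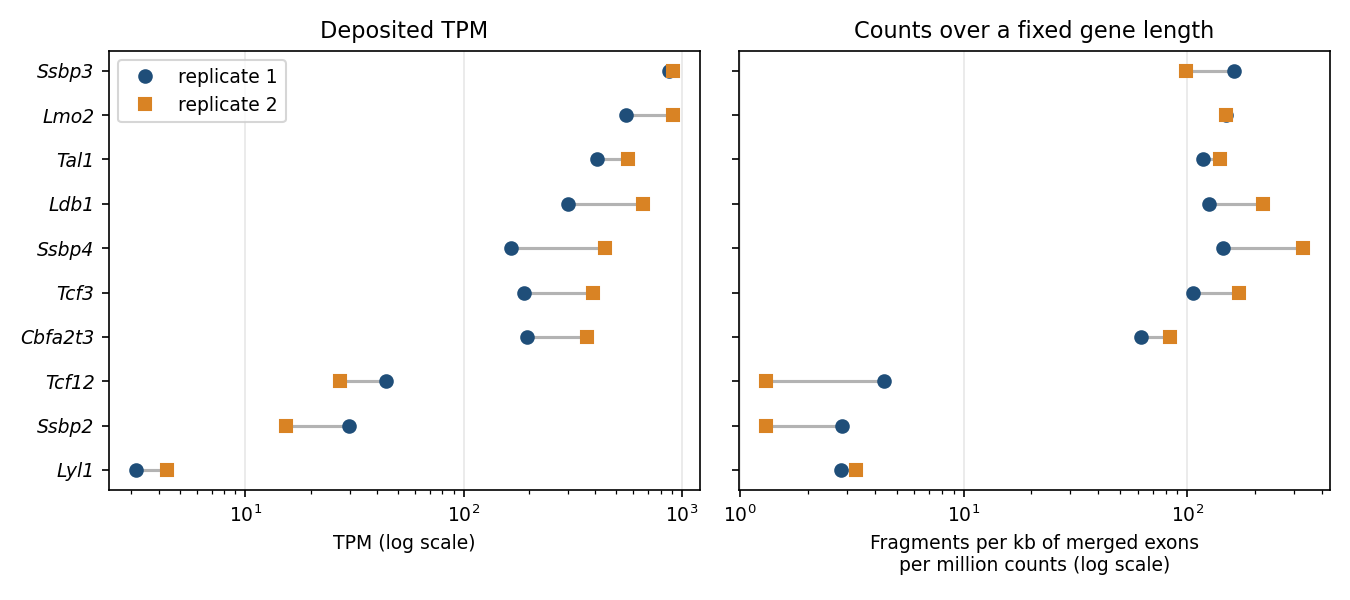
RNA level of the 10 complex genes in replicate 1 (circles) and replicate 2 (squares), as deposited TPM on the left and as CPM per kilobase of merged exons on the right, both on log axes. On the left no gene exceeds 909.9 TPM and Lyl1 stays under 5 TPM, and on the right 7 genes lie above 60 and Tcf12, Ssbp2 and Lyl1 lie below 5.

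Ordered by mean TPM, the genes were Ssbp3, Lmo2, Tal1, Ldb1, Ssbp4, Tcf3, Cbfa2t3, Tcf12, Ssbp2 and Lyl1. Of the 9 pairs of neighbours in this order, 2 were set apart beyond their spread, meaning that the lower value of the upper gene exceeded the higher value of the lower gene. These were Cbfa2t3 over Tcf12, with 195 TPM against 44.0 TPM as the nearest values, and Ssbp2 over Lyl1, with 15.4 TPM against 4.39 TPM. The genes from Ssbp3 to Cbfa2t3 could not be ordered from neighbour to neighbour. On the merged-exon scale the order was Ssbp4, Ldb1, Lmo2, Tcf3, Ssbp3, Tal1, Cbfa2t3, Lyl1, Tcf12 and Ssbp2, with Ssbp4 at 144 in replicate 1 and 329 in replicate 2 and Ssbp3 at 162 in replicate 1 and 98.3 in replicate 2. The pairs set apart on that scale were Tal1 over Cbfa2t3 and Cbfa2t3 over Lyl1. Merged lengths came from the later annotation, where Cbfa2t3-203 has 7645 bases and Ldb1-207 has 3133. In the deposited tables these models have 4047 and 2014 bases. Their genes may thus be placed too low in this order. Whether Tal1 stays apart from Cbfa2t3 with the deposited lengths was not tested. Tcf12 had a merged length of 15529 bases over 21 models, against 1800 for Lyl1 with 1 model. The same 7 genes were high on both scales, as the plot of levels shows.

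**Figure D2:**
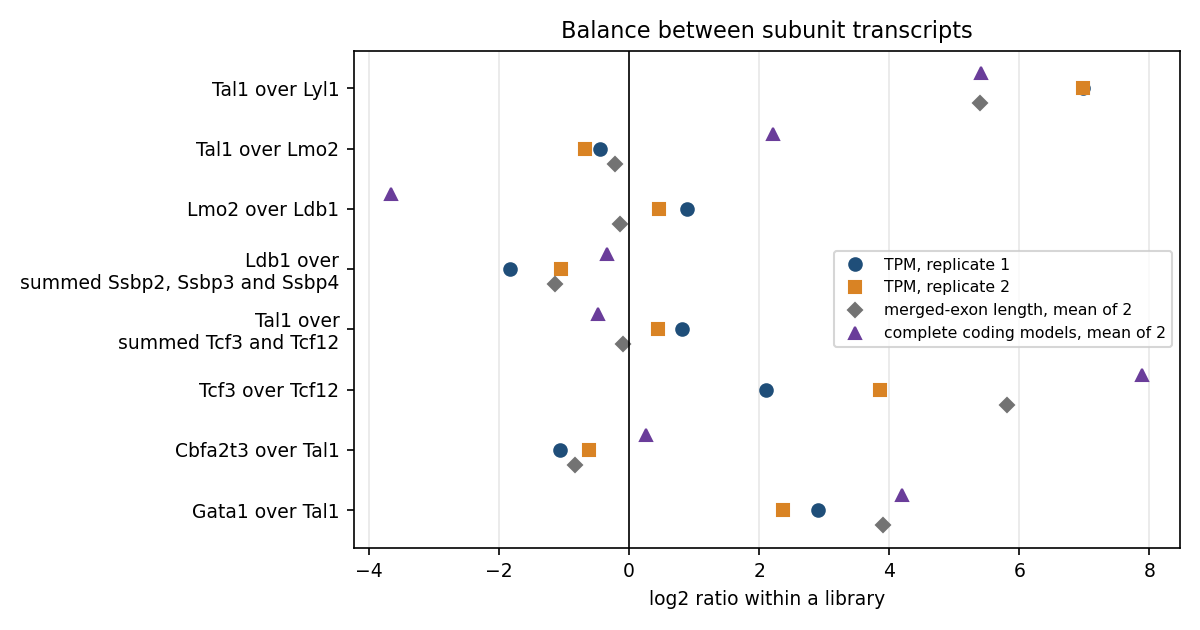
Log2 ratio between complex genes within a library, from deposited TPM in replicate 1 (circles) and replicate 2 (squares), from counts over merged-exon length (diamonds, mean of 2 libraries) and from complete coding models (triangles, mean of 2). The vertical line marks equal levels. Tal1 over Lyl1 is above 5 on every scale, while Lmo2 over Ldb1 lies on both sides of the line.

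The balance between subunits was described by 8 log2 ratios of TPM within a library, and all 8 had the same sign in both. The log2 ratio of Tal1 over Lmo2 was -0.45 in replicate 1 and -0.68 in replicate 2, and that of Lmo2 over Ldb1 was 0.89 and 0.45. Tal1 over the sum of Tcf3 and Tcf12 was 0.81 in replicate 1 and 0.44 in replicate 2. Ldb1 over the sum of the SSBP genes was -1.83 in replicate 1 and -1.04 in replicate 2, and Cbfa2t3 over Tal1 was -1.06 and -0.62. Gata1 over Tal1 was 2.90 in replicate 1 and 2.37 in replicate 2. The mean of each ratio was larger than its difference between the libraries in 8 of 8 cases.

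Several of these directions belong to the TPM scale. Restricted to complete coding models, the mean log2 ratio of Tal1 over Lmo2 was 2.21 and that of Lmo2 over Ldb1 was -3.65, the opposite of the directions over all models. Tal1 over the E proteins became -0.48 and Cbfa2t3 over Tal1 became 0.26. On merged-exon length Lmo2 over Ldb1 was -0.14 and Tal1 over the E proteins was -0.10, with a spread between libraries larger than either mean. The mean directions of Tal1 over Lyl1, Tcf3 over Tcf12, Gata1 over Tal1 and Ldb1 over the SSBP genes were kept on all of these scales. For Ldb1 over the SSBP genes the mean was -1.44 with all models and -0.35 with coding models alone, where the SD of 0.60 between the libraries was larger than the mean.

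**Figure D3:**
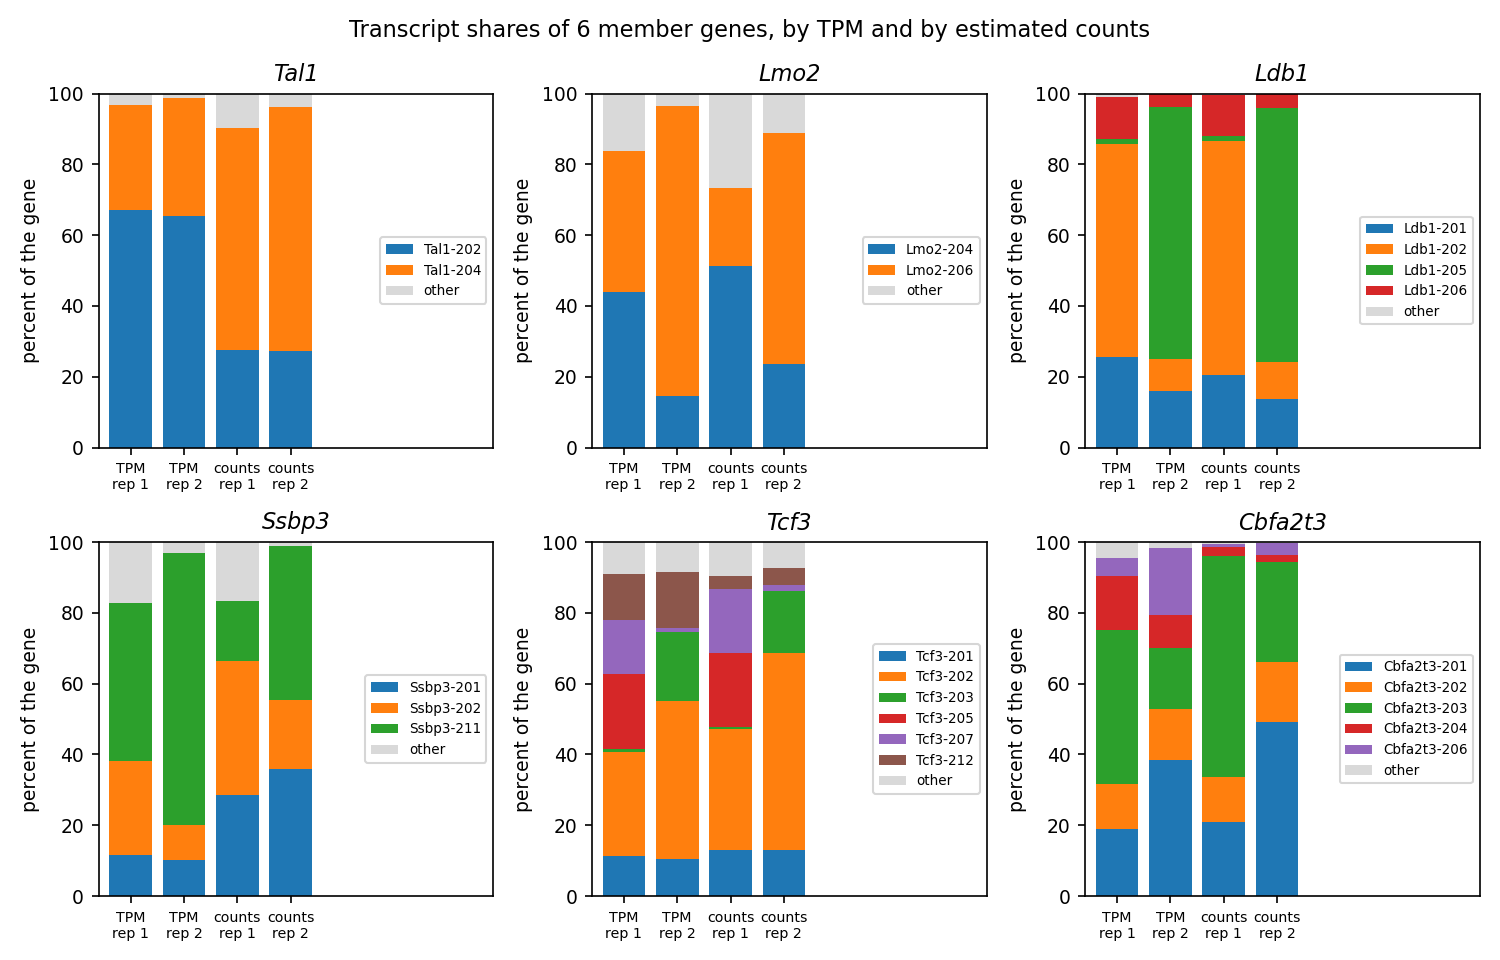
Share of each gene given to its transcript models, in percent, for 6 of the complex genes. In each panel the first 2 bars are shares of TPM and the other 2 are shares of estimated counts, replicate 1 left of replicate 2; models under 10% in every bar are grouped as other. The bars of Tal1 are alike between libraries, and those of Ldb1 change from Ldb1-202 to Ldb1-205.

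Of the 8 genes that reached 10 TPM and had several models, 5 had the same leading model by TPM in both libraries (Tal1, Ssbp2, Ssbp3, Tcf3 and Tcf12), against 66.5% of the 3700 such genes in the whole table. The other 3, Lmo2, Ldb1 and Cbfa2t3, had a different leader in each library, so agreement among the complex genes was near the background. By counts, 3 of the 8 genes kept their leader (Tal1, Ssbp2 and Tcf3), against 67.5% of all such genes.

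**Figure D4:**
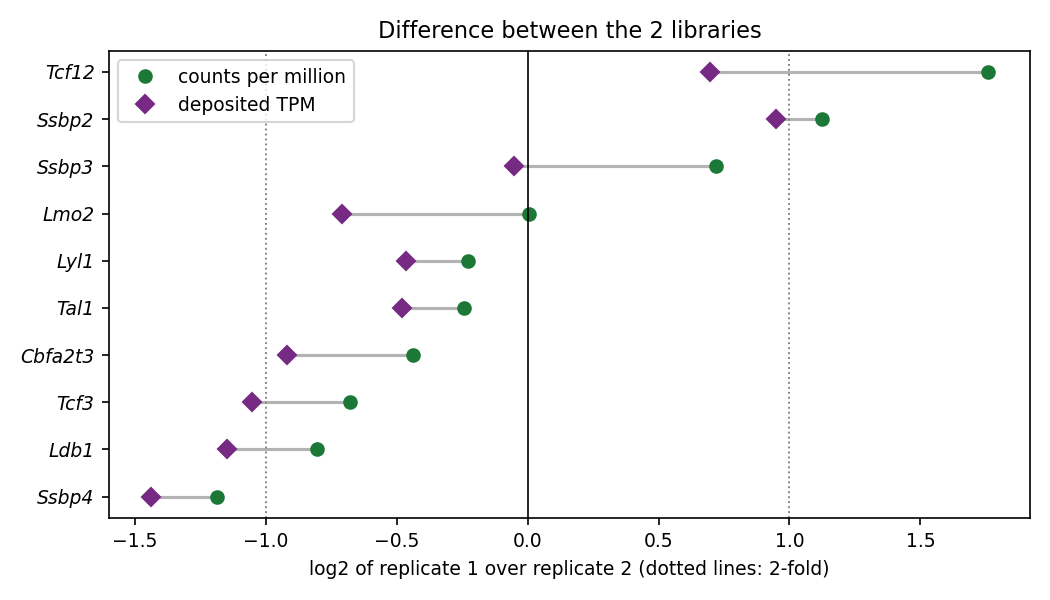
Log2 of replicate 1 over replicate 2 for each complex gene, from CPM (circles) and from deposited TPM (diamonds). Dotted lines mark a 2-fold difference. Lmo2 lies at 0.01 by counts and at -0.71 by TPM, and Ssbp4 lies beyond 2-fold on both.

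Differences between the libraries were set against those of all genes, after scaling the counts by TMM (trimmed mean of M values). Of the 10 genes, 4 were at least 2-fold apart, against 47.8% of the 8895 genes with a mean of at least 1 CPM. Tcf12 was 2-fold or more higher in replicate 1, where the background was 30.2%, with a log2 ratio of 1.36. Ldb1 (-1.20), Ssbp4 (-1.58) and Tcf3 (-1.08) were 2-fold or more higher in replicate 2, where the background was 17.7%. The share of complex genes past 2-fold was near that of all genes. Scaled by total counts, 3 were apart, Tcf12 and Ssbp2 higher in replicate 1 and Ssbp4 higher in replicate 2, against 50.5% of all genes. By deposited TPM 3 were apart, Ldb1, Ssbp4 and Tcf3, all higher in replicate 2, against 49.0% of all genes. Under TMM the median log2 ratio of the complex genes was -0.63, against 0.21 for all genes tested. Scaling by total counts moved the median of all genes tested to 0.61 and that of the complex genes to -0.23, and brought the log2 ratio of Lmo2 to 0.01 against -0.39 under TMM. The summed TPM of the erythroid markers was 198294 in replicate 1 and 86743 in replicate 2, and the part of this difference in the values above was not tested.

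Ssbp3 and Tcf12 differed most between the scales. Ssbp3 had 1065 CPM in replicate 1 and 647 CPM in replicate 2, a log2 ratio of 0.72, but a log2 ratio of -0.05 in TPM. Its effective length was 1246 bases in replicate 1 and 883 bases in replicate 2. For Tcf12 the log2 ratio was 1.76 in CPM and 0.70 in TPM, with effective lengths of 1591 bases in replicate 1 and 924 bases in replicate 2. Both genes thus had a higher CPM and a longer effective length in replicate 1.

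Of 16 partner genes of the complex, which include factors and chromatin enzymes known to associate with it, 14 were detected. The highest were Gata1, with 3038 TPM in replicate 1 and 2939.8 TPM in replicate 2, Klf1, with 665 and 2351 TPM, and Gfi1b, with 435 and 378 TPM. Rlim, an enzyme gene whose product marks LDB1 for degradation, was not detected by that minimum, with 2.62 TPM in replicate 1 and 0.49 TPM in replicate 2, and is named here after its values were seen. Of 15 genes known to be bound by the complex in erythroid cells, 12 were detected. The highest were the globin genes Hbb-bs, Hba-a1 and Hba-a2, and the lowest was the progenitor factor gene Myb, with 0.37 TPM in replicate 1 and 0.33 TPM in replicate 2.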

How the data were processed

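Polyadenylated RNA of 2 libraries of 1 group was measured. For genes and transcripts the deposited values are estimated counts, which can be fractional, with TPM, FPKM (not used for results) and, for transcripts, the percent of the gene's TPM, with posterior means, deposited standard deviations of counts and TPM intervals. Per the labels the assembly is mm10, and a note deposited with the tables names GENCODE M4 as annotation and transcriptome alignments as input. No source used here gives the quantification tool, its version or the use of strand. Symbols, positions, model types and merged-exon lengths came from GENCODE M21. All 90 member transcripts matched, 87 with the same length. Entries that are not genes (3 and 0 counts) were left out of the totals.

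Members, lists, motifs and the named-gene rule were chosen with earlier results of these data known. The rule took in all 10 members, listed genes (in lists over 6, the 3 highest and the lowest by mean TPM) and models with at least 10% of their gene; others are named where the text says so. A gene that the rule takes in is not reported here. Coding and complete models follow the annotation's transcript types and missing-end tags. Ratios are log2 of TPM + 0.1. Starts were grouped where each lay within 500 bases of the next, so a group can span more than that. Rounded counts were TMM-scaled with edgeR 4.0.16 (prior count 0.5, factors 1.15 and 0.871), with DESeq2 1.42.0 size factors as an alternative. The TMM step was tested on simulated data in which few genes changed, equally up and down. That test does not cover differences as wide and unequal as those between these libraries, where 47.8% of genes were 2-fold apart. No p-values were computed. Promoters came from RefSeq (GRCm38.p6). Python 3.11.15 and R 4.3.3 were used.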

Additional observations from a re-analysis of the deposited data

How the results depend on the processing

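No paired analysis was possible because the libraries form 1 group. With 2 libraries and no comparison between conditions, the levels above are descriptions, and depth limits the shares of models most in replicate 2, where Lyl1, Ssbp2 and Tcf12 had 82, 144 and 280 counts. Merged-exon length, complete coding models and leadership by count were added after the data had been seen. Detection and signs with 1 library left out (10 to 10 genes, 8 to 8 ratios) are fixed by the rules and say nothing of stability. Of the 10 genes, 9 were detected with coding models only or a minimum of 5 TPM, and 8 with complete coding models. With posterior mean TPM 4 neighbours were set apart in place of 2, and the cause was not tested. At 1.5-fold, 8 genes were apart between the libraries in place of 4, against 67.8% of all genes tested. By estimated count 3 genes kept their leading model in place of 5. Ratios of the same sign in both libraries numbered 7 with coding or complete coding models and 6 on merged-exon length. Directions that turned with complete coding models were Tal1 over Lmo2 (2.21), Lmo2 over Ldb1 (-3.65), Tal1 over the E proteins (-0.48) and Cbfa2t3 over Tal1 (0.26). Those that turned on merged-exon length were Lmo2 over Ldb1 (-0.14) and Tal1 over the E proteins (-0.10). The merged-exon scale uses a fixed length for each gene, which also counts exons of models with few or no reads. TPM uses the effective lengths given above, which differ between the libraries. Among 40 values recomputed for the 8 ratios with both libraries, 23 stayed within 1 SD, 11 moved further and 6 turned.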
